A study of Mus musculus with 2 samples.

Results

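Of 10802 autosomal 1-kb bins with at least 100 CpG calls in a sperm library and in a tail library, 477 were partly methylated in both (4.42%, exact 95% interval 4.04 to 4.82). The bins were chosen by their own levels: chromosomes 1 to 19 were divided into 1-kb bins, the methylated and unmethylated calls of all CpG positions in a bin were summed for each library, and a bin was taken when its level, the methylated share of those calls, lay above 0.2 and at or under 0.8 in sperm and also in tail. These 477 bins are called members here and the remaining 10325 the other bins. Because the levels selected the members, every level, difference and position value that follows is a description of these libraries, and no test was made on them.

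The DNA came from sperm and from the tail of the same adult C57BL/6J male mouse, with 1 library of each, so no spread between animals or libraries could be measured. Intervals are exact (Clopper-Pearson) 95% binomial intervals of the calls or, for a share of bins, of the bins. They cover counting error only, since PCR copies of a molecule were counted as separate calls. No treatment or genotype separated the samples, and tail is a mixture of cell types whose shares are not known. The sperm file held 95744413 calls at 754507 positions and the tail file 55366653 calls at 959191 positions. The member bins had a median of 804 calls in sperm and 537 in tail, against 2987 in sperm and 1792 in tail over the other bins.

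Intracisternal A particles (IAPs) are retrovirus-like elements of rodents that are still able to insert into the mouse genome. A full copy carries a long terminal repeat (LTR) at each end of its internal sequence, and recombination between the ends leaves a solo LTR. The LTR holds the promoter, and DNA methylation of its CpGs keeps most copies silent in somatic cells and in germ cells, while a few copies escape and differ in level between mice or between cells. The assay read bisulfite-converted DNA from primers in the LTR. Primer IAP-BS1 reads the antisense strand of the first part of the LTR and runs out through its 5′ end, and primer IAP-BS2 reads the sense strand of the last part and runs out through the 3′ end, into unique flanking DNA or into IAP internal sequence. A fragment therefore reports a short end of an LTR together with what lies beside it. Bisulfite turns unmethylated cytosine into uracil, which is read as T, so that an unmethylated CpG and a TG give the same read.

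The sequences that carry most of what follows are short CpG sites which recur in many LTR copies. Each is shown with 10 bases on either side, on the strand that was read, 5′ to 3′, from GRCm38, with the CpG in capitals. Positions were put in the same site when these bases are identical after conversion of C to T, and the form printed is the commonest among the members. Sites A, D, B and K follow each other from 5′ to 3′ near the 3′ end of the LTR on the sense strand (with site E between B and K), and sites C, H, I and L lie on the antisense strand of its first part.
site A: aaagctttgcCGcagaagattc
site D: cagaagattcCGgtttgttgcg
site B: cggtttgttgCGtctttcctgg
site E: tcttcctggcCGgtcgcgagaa
site K: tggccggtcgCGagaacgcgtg
site C: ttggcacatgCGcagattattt
site H: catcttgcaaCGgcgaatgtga
site I: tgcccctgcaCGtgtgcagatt
site L: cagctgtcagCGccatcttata

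Most members lay near the upper limit rather than in the middle of the allowed range. Their median level was 0.706 in sperm (quartiles 0.609 and 0.753) and 0.737 in tail (quartiles 0.649 and 0.775), against 0.888 in sperm and 0.902 in tail over the other bins. A level above 0.7 in both libraries was found in 184 of the 477, and a level between 0.4 and 0.6 in both in 19. At or under 0.4 were 37 members in sperm and 30 in tail. Partly methylated bins numbered 2233 in sperm (20.7% of the bins tested) and 1459 in tail (13.5%), so the members made up 21.4% of those of sperm and 32.7% of those of tail.

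**Figure D1:**
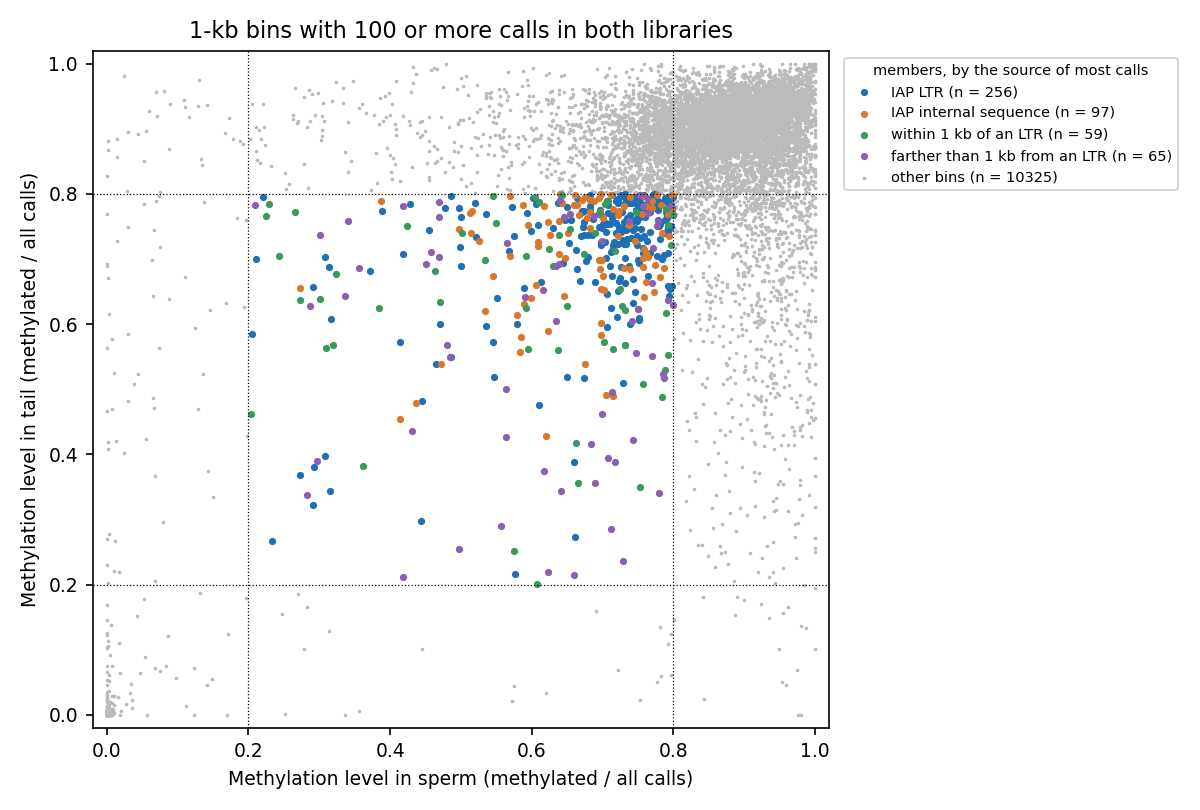
Each point is a 1-kb bin with at least 100 calls in both libraries, with its level in sperm on the x axis and in tail on the y axis. Coloured points are the 477 members, by the kind of sequence that gave most of their calls, grey points are the 10325 other bins, and dotted lines mark 0.2 and 0.8; the members crowd into the upper right corner of the square, where 184 exceed 0.7 in both.

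At the limits the members ran straight into the other bins. The 2 members nearest to the upper limit in sperm had sperm levels of 0.7998 and 0.7994, and the nearest bins outside both had 0.8006. In tail the nearest members were both at the limit itself, and the nearest bins outside had 0.8003 and 0.8005. At the lower limit the nearest members had 0.2040 and 0.2048 in sperm and 0.2005 and 0.2124 in tail. The nearest bins outside had 0.1983 and 0.1965 in sperm and 0.1855 and 0.1654 in tail. With limits of 0.3 and 0.7 in place of 0.2 and 0.8, 83 bins remained.

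Sperm and tail levels of a member were often close. The difference, sperm minus tail, had a median of -0.024 with quartiles of -0.089 and 0.034. Of the 477 members, 298 (62.5%) differed by less than 0.1, against 70.7% of all bins tested. Sperm was at least 0.2 below tail in 57 members (11.9%), where 5.65% of all bins tested did so, and at least 0.2 above tail in 35 members (7.34%), where 5.50% of all bins did so. Since both levels chose the members, nothing is read from these shares. Across members the 2 levels were loosely related (Pearson r = 0.31, Spearman rho = 0.29, n = 477 bins of the same pair of libraries), and the range that the rule allows limits both values.

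Members were unevenly spread over depth and over kinds of sequence. Of bins whose smaller call total was 100 to under 300, 178 of 2165 were members (8.22%). The share was 6.37% from 300 to under 1000, 3.73% from 1000 to under 3000 and 1.51% at 3000 or more (57 of 3782). An IAP LTR lay in 290 of the 477 members (60.8%), against 8669 of all 10802 bins (80.3%). Put the other way, 3.35% of bins with an LTR were members (exact 95% interval 2.98 to 3.75), against 8.77% of bins without one (7.60 to 10.05). Bins without one may still hold a short or diverged LTR that the search did not find. A place with at most 3 mismatches to a primer lay in or within 500 bases of 153 of these 187 members (81.8%), against 52.6% of the 1946 other bins without an LTR. However, a found LTR lay within 1 kb of a covered position in 122 of the 187 members (65.2%). Of the 1946 other bins, 1387 drew most calls from farther than 1 kb. The primer shares thus compare bins at unlike distances from found LTRs and say nothing about missed ones. Depth and kind of sequence go together, so the shares were also taken within depth.

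Bins that drew most of their calls from IAP internal sequence, the part between the LTRs that encodes the viral proteins, were members most often, in 97 of 589 cases (16.5%, 13.56 to 19.72). Bins read mostly in the DNA within 1 kb of an LTR followed, with 59 of 481 (12.3%, 9.47 to 15.54). Bins read mostly in the LTR itself gave the largest number but a low share, 256 of 8280 (3.09%, 2.73 to 3.49). At 1000 or more calls in both libraries the shares were 8.78% for internal sequence, 6.17% for flanks and 2.12% for LTRs, and below 1000 calls they were 19%, 15.4% and 5.45%. The order of these 3 kinds was the same in both depth classes.

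A further 65 members drew most calls from DNA farther than 1 kb from any LTR found, 4.48% of the 1452 such bins. A place with at most 3 mismatches to either primer lay in or within 500 bases of 33 of these 65 (50.8%), 32 of them to IAP-BS1, against 34.5% of the 1387 such other bins. How the remaining bins came to be read was not tested.

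LTR subfamilies differed in how often their bins were members. IAPLTR2a2, the subfamily with most members, gave 101 of 1417 bins (7.13%, 5.84 to 8.59). IAPLTR2b gave 43 of 1031 (4.17%), IAPLTR2a 31 of 797 (3.89%) and IAPLTR2 49 of 1489 (3.29%). IAPLTR1a and IAPLTR1 gave 25 of 1895 (1.32%, 0.86 to 1.94) and 15 of 1549 (0.968%, 0.54 to 1.59). At 1000 or more calls IAPLTR2a2 had 4.35% (3.16 to 5.81), close to IAPLTR2b with 3.69% (2.49 to 5.26) and IAPLTR2a with 2.96% (1.79 to 4.58). IAPLTR2 then had 2.01%, IAPLTR1a 0.967% and IAPLTR1 0.509%. The small groups IAPEY3 (6 of 52) and IAPLTR4 (4 of 41) had higher shares with intervals of 4.35 to 23.44 and 2.72 to 23.13, but none of their 4 and 9 bins with 1000 or more calls was a member. Pooled over subfamilies, the shares by place in the element were 3.28% for 3′ LTRs, 3.50% for 5′ LTRs and 3.18% for solo LTRs, whose intervals overlapped. Within IAPLTR2a2 they were 8.40% for 3′ LTRs (5.88 to 11.53), 8.02% for 5′ LTRs (5.62 to 11.03) and 5.74% for solo LTRs (3.98 to 7.97). Copies of a subfamily share their sequence and are not independent, so no test was made.

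**Figure D2:**
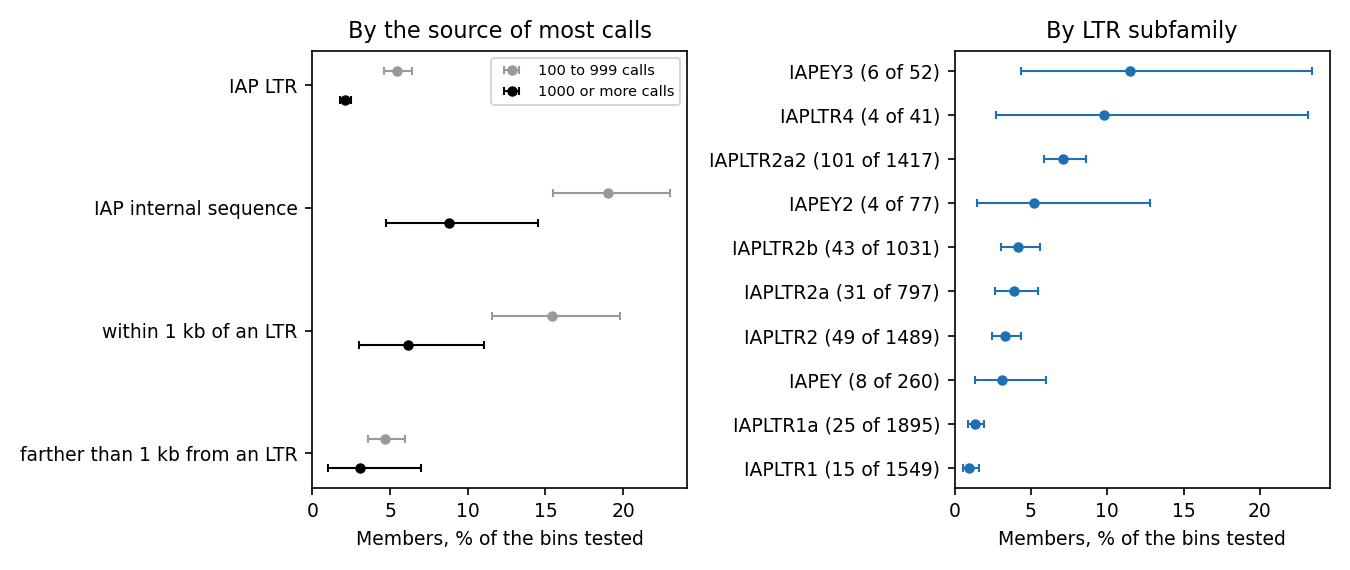
Members as a percent of the bins tested, with exact 95% binomial intervals as bars. The left panel splits bins by the kind of sequence with most calls and by the smaller call total, and internal sequence gives 8.78% at 1000 or more calls; the right panel splits bins with an LTR by subfamily, with 7.13% for IAPLTR2a2 and 0.968% for IAPLTR1.

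In 8 of 10 LTR subfamilies the median level of the members was lower in sperm than in tail, as it was for the other bins in 9 of the 10. In IAPLTR2a2 the median member had 0.706 in sperm and 0.740 in tail, and sperm was below tail in 73 of 101. The 8 IAPEY members had medians of 0.602 in sperm and 0.756 in tail, with sperm lower in 6. The 15 IAPLTR1 members had 0.752 in sperm and 0.751 in tail, with sperm lower in 6. Members read mostly in flanking DNA had a median of 0.638 for sperm and 0.678 for tail, and for those read mostly in internal sequence it was 0.695 for sperm and 0.735 for tail. The other bins read mostly in flanks had 0.900 in sperm and 0.874 in tail, and those read mostly in internal sequence 0.805 in sperm and 0.877 in tail.

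Members were somewhat farther from genes than the bins as a whole. They were intergenic in 363 of 477 cases (76.1%, against 66.6% of all bins), intronic in 80 (16.8%, against 24.8%) and exonic in 34 (7.13%, against 8.60%). The median distance to the nearest start of a protein-coding gene was 94350 bases for members and 82838 bases for all bins. An exon of a protein-coding gene was touched by 16 members (3.35%, against 5.78% of all bins), and 7 lay within 1 kb of such a start (1.47%, against 1.91%). Base composition was alike, with a median GC content of 45.6% in members and 46.0% in all bins, and 20 CpG sites per bin against 22.0. On chromosome 4, 43 of 643 bins were members (6.69%), and on chromosome 16, 10 of 478 (2.09%).

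No member lay in or within 10 kb of a gene of 2 lists from the literature. Of 44 imprinted genes all were found in the annotation, with 7 tested bins in reach. Of 14 genes next to IAPs known to vary between mice 13 were found, with 25 tested bins in reach. These lists therefore say nothing about the members.

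Most bins beside a member were not members. Of 295 tested bins directly beside a member, 26 were members themselves (8.81%, against 4.42% of all bins tested). The 269 that were not had a median of 0.844 for sperm and 0.901 for tail, and 171 of them (63.6%) exceeded 0.8 in both libraries, close to the 68.1% of all bins tested.

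Inside a member, the calls were usually a mixture of CpG positions at different levels rather than positions that all sat in between. Among positions with at least 20 calls, the median member (347 bins with 3 or more such positions in each library) had 50% of its positions partly methylated in sperm and 42.9% in tail. Over all bins the medians were 18.2% for sperm and 13.3% for tail. The median SD over the positions of a bin was 0.221 in sperm and 0.204 in tail, against 0.107 and 0.089 over all bins. Of 2849 member positions with 20 calls in both libraries, 846 were partly methylated in both (29.7%), 826 were above 0.8 in both (29.0%) and 595 were partly methylated in sperm and above 0.8 in tail (20.9%). At or under 0.2 in both were 50 (1.76%). Over all bins the same shares of 80967 positions were 6.67%, 63.9%, 16.7% and 1.22%.

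Members in which most positions were in between were a minority. With 3 or more positions covered 20 times in both libraries, 340 members could be described. More than 50% of the positions were partly methylated in both libraries in 42 of them (12.4%), all positions in 3, and none in 54 (15.9%). Over all bins 57 of 9165 (0.622%) had more than 50% of such positions, so 42 of these 57 were members, and 5964 (65.1%) had none. A position low in both libraries stood beside a position high in both in 32 members (9.41%, against 1.35% of all bins). A single position supplied over 50% of all unmethylated calls in 214 members in sperm (44.9%) and 226 in tail (47.4%), against 27.4% and 27.0% of all bins. After the position with most calls was left out of each bin, 342 of the 477 still had 100 calls in both libraries, and 221 of those (64.6%) were still partly methylated in both.

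**Figure D3:**
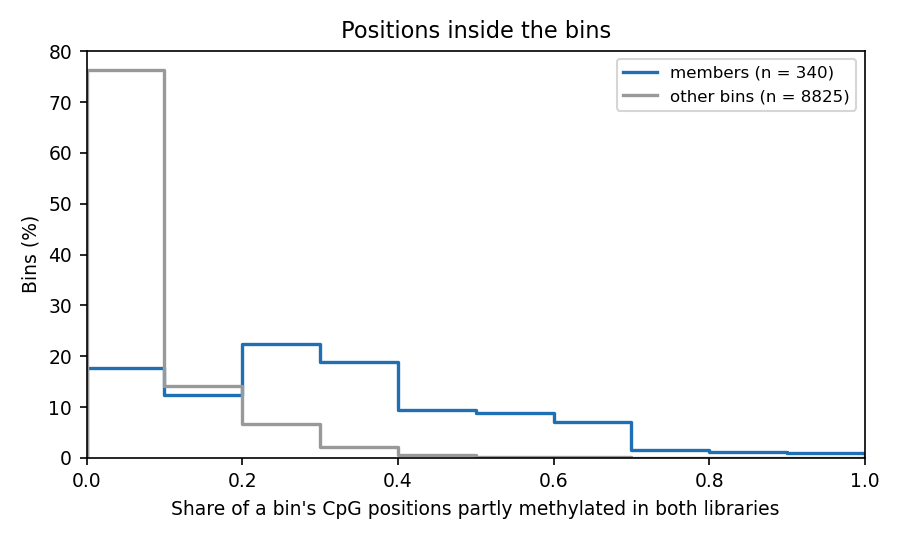
For bins with at least 3 positions of 20 or more calls in both libraries, the x axis gives the share of positions that are partly methylated in both and the y axis the percent of bins. The 340 members (blue) spread from 0 to 1, with 42 above 0.5, and the grey line shows the other bins. Over all bins, members included, 65.1% have none.

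The strands of a member also differed. They are read from different ends of the LTR. Where each strand of a member had 50 or more calls, both strands were partly methylated in 31 of 80 members in sperm (38.8%) and 20 of 75 in tail (26.7%), against 6.79% in sperm and 0.793% in tail for the other bins. In 49 members in sperm (61.3%) and 53 in tail (70.7%), 1 strand was partly methylated and the other was not, against 29.2% in sperm and 16.5% in tail for the other bins. Between strands, levels of members lay a median of 0.172 apart for sperm and 0.160 for tail, against 0.067 and 0.051 in the other bins. LTR and neighbouring sequence also differed within a bin. In 162 members with 50 calls on each side in both libraries, the median of the LTR part was 0.757 for sperm and 0.782 for tail, and that of the rest was 0.682 for sperm and 0.729 for tail. The LTR was the higher part in 114 of 162 in sperm (70.4%) and 102 in tail (63.0%), and in 70.6% and 78.8% of 5115 other bins.

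Beyond the 3′ end of the LTR, on the strand read from IAP-BS2, positions of members were lower than inside it. Inside the LTR their median was 0.803 for sperm (n = 1009) and 0.865 for tail (n = 983). Within 100 bases outside it was 0.770 for sperm and 0.832 for tail, and beyond that, up to 250 bases, 0.645 for sperm (n = 85) and 0.710 for tail (n = 65). In the other bins the median from beyond 100 up to 250 bases was 0.933 for sperm and 0.886 for tail, against 0.916 and 0.938 inside.

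The share of partly methylated positions differed with a property that the rule did not use, the dinucleotide that other IAP copies carry at the same place. For each CpG position in an LTR, copies with identical converted sequence over 10 bases on each side were counted among the LTR and internal copies found. Where over 90% of copies have CG, 57 of 506 member positions were partly methylated in both libraries (11.3%), the median being 0.850 for sperm and 0.896 for tail. Where 10% or more have TG, 223 of 443 were (50.3%), the median being 0.672 for sperm and 0.655 for tail. The other bins had the same order at lower shares, 10.8% of 9334 positions at places with TG and 0.925% of 28761 at places with CG. Places with TG made up 32.1% of the LTR positions of members and 17.9% of those of the other bins. In internal sequence the contrast was smaller and was not one of TG alone. There 68 of 168 member positions were partly methylated in both at places with TG (40.5%), 70 of 176 where CA or TA stands in 10% or more of copies (39.8%) and 85 of 333 at places with CG (25.5%). In the other bins these shares were 20%, 21% and 16.5%. At LTR places with CA or TA they were 17.4% in members and 5.28% in the other bins.

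The recurring sites printed above show the contrast between neighbours. At site B, where TG stands in 33.3% of 4764 copies, 71 of 97 member positions were partly methylated in both libraries (73.2%), and the median level was 0.580 for sperm and 0.593 for tail. At site E, the next downstream, TG stands in 1.51% of 3720 copies, and 4 of 54 positions were partly methylated (7.41%), and the median level was 0.899 for sperm and 0.911 for tail. Site D, with TG in 62.5% of copies, gave 43 of 72 (59.7%) and site K, with TG in 22.7%, gave 16 of 26 (61.5%). Site A, with TG in 2.10% and lying before site D, gave 10 of 114 (8.77%).

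On the antisense strand, site I was the lowest recurring site of the members, its median being 0.270 for sperm and 0.401 for tail over 31 positions, 30 of them in IAPLTR2a2. TG stands there in 20.4% of copies. Site I was also the lowest in the other bins, with a median of 0.609 for sperm and 0.639 for tail. There 58 of 168 positions were partly methylated in both (34.5%), against 13 of 31 in members (41.9%). Site L, also mostly in IAPLTR2a2, had a median of 0.416 for sperm and 0.592 for tail over 24 positions, 8 of them partly methylated in both, and TG in 31.2%. Site H gave 18 of 36 partly methylated (50%) with TG in 22.1%, and site C 11 of 77 (14.3%) with TG in 2.92%. Some sites went against this order. None of 21 positions was partly methylated in both at site Q, where TG stands in 13.8% of copies, and 7 of 17 were at site T (41.2%), where it stands in 0.647%. Over all 24 sites with 15 or more member positions, the 8 with TG in 10% or more of copies had 180 of 325 positions partly methylated in both (55.4%) and the other 16 had 64 of 554 (11.6%). In the other bins the same sites gave 12.4% and 0.957%. Across the 24 sites, which share libraries and copies, Spearman's rho between the TG share and the share of positions partly methylated was 0.55 in members and 0.80 in the other bins (Pearson r = 0.74 and 0.57).

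**Figure D4:**
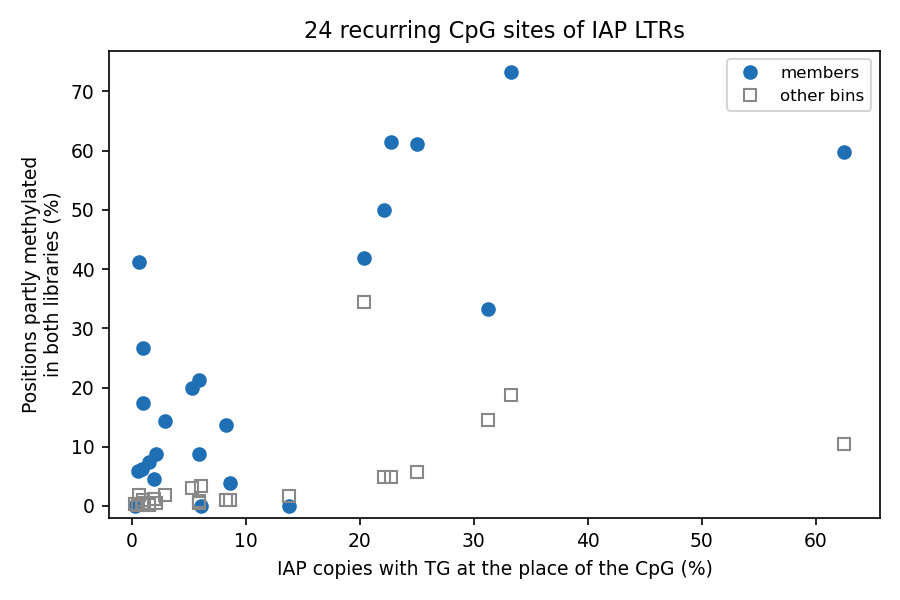
Each of 24 recurring CpG sites of IAP LTRs appears as a filled circle (members) and an open square (other bins). The x axis is the percent of IAP copies with TG at that place and the y axis the percent of positions partly methylated in both libraries; the 3 sites above 60% in members have TG in 22.7% to 33.3% of copies.

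With every place left out where 10% or more of copies have TG, 430 of the 477 members still had 100 calls in both libraries, and 297 of them (69.1%) were still partly methylated in both. The number of members under that rule was 316, of which 44.6% held an LTR. This omission was chosen after the data had been seen. It could take out positions in LTR or internal sequence only, so bins read mostly in flanks or in farther DNA could hardly change. The shares of 69.1% and 44.6% are limited by that.

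Of the 6 most deeply read members, 4 had a single position far below the others in both libraries, and so had a bin in Spon1 that was named, by its depth, among the 9 of 122 members with 8 or more positions that had none partly methylated in both. All 5 hold 3′ LTRs of IAPLTR1a or IAPLTR1, and the low position was read on the antisense strand. The sequences show these positions with 20 bases before and after the CpG, which is in capitals, on the strand read, from GRCm38.
chr9:22177720-22177761, plus strand: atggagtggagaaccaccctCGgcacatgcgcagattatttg
chr1:48354582-48354623, plus strand: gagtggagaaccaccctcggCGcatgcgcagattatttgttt
chr9:3461541-3461582, plus strand: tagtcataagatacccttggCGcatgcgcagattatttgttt
chr10:83466150-83466191, plus strand: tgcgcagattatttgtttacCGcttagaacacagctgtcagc
chr7:113946137-113946178, minus strand: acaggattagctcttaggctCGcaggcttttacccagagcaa

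The bin chr9:22177000-22177999, an IAPLTR1a 3′ LTR 10091 bases from the start of the zinc finger gene Zfp872, had a level of 0.705 in sperm (0.702 to 0.709, 58330 calls) and 0.702 in tail (0.699 to 0.706, 69389 calls). Its position 22177740 had 0.068 in sperm over 10905 calls and 0.148 in tail over 17288 calls, and supplied 59.1% of the unmethylated calls of the bin in sperm and 71.3% in tail. The next CpG on that strand, 22177749, had 0.693 in sperm and 0.879 in tail, and 10 of its 15 positions were above 0.8 in both. At the place of the low CpG, 1133 IAP copies have CG and 1115 have TG. The same place in the Spon1 bin, position 113946364 of chromosome 7, had 0.897 in sperm and 0.894 in tail.

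In the other 4 bins the low CpG stands where at most 3 copies have CG and most have CA. The bin chr1:48354000-48354999, an intergenic IAPLTR1a 3′ LTR, had 0.724 in sperm and 0.667 in tail. Its position 48354602 had 0.141 in sperm over 4121 calls and 0.118 in tail over 12266 calls, while the CpG 6 bases on had 0.861 in sperm and 0.903 in tail. With the same flanks, 2 copies have CG and 2755 have CA. The bin chr9:3461000-3461999, an IAPLTR1 3′ LTR in an intron of Cwf19l2, had 0.752 in sperm and 0.610 in tail. Its position 3461561 had 0.135 in sperm and 0.130 in tail, and 3 copies have CG there and 2105 CA. It supplied 75.6% of the unmethylated calls in sperm and 81.1% in tail.

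The bin chr10:83466000-83466999 touched an exon of D10Wsu102e and had 0.755 in sperm and 0.780 in tail. Its position 83466170 had 0.290 in sperm and 0.285 in tail, with CG in 2 copies and CA in 5200, and the other 7 of its 8 positions were above 0.8 in both. The bin chr7:113946000-113946999, an IAPLTR1a 3′ LTR in an intron of Spon1, which encodes a secreted matrix protein, had 0.730 in sperm and 0.723 in tail. Its position 113946158, in internal sequence, had 0.10 in sperm and 0.109 in tail, with CG in 1 copy, CA in 1540 and TA in 398. Of its 12 covered positions 9 were above 0.8 in both. In each of these 4 bins the level of the low CpG was close in the libraries. With calls capped at 100 per position none of the 5 bins was partly methylated in both, since their levels then ran from 0.795 to 0.874 in sperm and from 0.838 to 0.865 in tail. The part that reads of other copies have in them was not tested.

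In other members sperm and tail differed along most of the covered positions. Spans of 3 such LTR bins are shown, each on the strand read with covered CpGs in capitals. The first and the second leave the LTR through its 3′ end, and the third lies within the first part of an LTR.
chr4:127015621-127015814, plus strand: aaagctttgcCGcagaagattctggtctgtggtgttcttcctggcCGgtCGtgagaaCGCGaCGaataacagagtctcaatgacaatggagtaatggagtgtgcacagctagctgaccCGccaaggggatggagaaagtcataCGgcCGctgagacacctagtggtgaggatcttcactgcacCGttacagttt
chr8:33493219-33493464, plus strand: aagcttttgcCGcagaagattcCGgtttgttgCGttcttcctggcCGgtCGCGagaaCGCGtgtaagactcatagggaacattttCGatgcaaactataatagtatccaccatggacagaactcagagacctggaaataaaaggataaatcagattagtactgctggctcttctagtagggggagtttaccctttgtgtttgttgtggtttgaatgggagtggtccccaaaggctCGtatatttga
chr19:5406711-5406806, plus strand: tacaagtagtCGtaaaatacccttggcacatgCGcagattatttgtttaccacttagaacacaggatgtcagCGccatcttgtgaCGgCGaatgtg

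The bin chr4:127015000-127015999 holds the IAPLTR1 3′ LTR chr4:127015335-127015691, 5325 bases from the start of Sfpq, which encodes a splicing factor. Its level was 0.577 in sperm (0.573 to 0.580, 69447 calls) and 0.216 in tail (0.212 to 0.221, 31738 calls). It was no member with levels as means over positions, which gave 0.380 in sperm and 0.161 in tail, or with capped calls, which gave 0.447 in sperm and 0.167 in tail. Methylation was lower toward the flank in both libraries, though not at every step. At the first CpG of the span, 127015631, it was 0.806 in sperm and 0.417 in tail, and at the last LTR CpG, 127015683, it was 0.534 in sperm and 0.138 in tail. Flank levels 48 bases beyond the LTR were 0.381 in sperm and 0.047 in tail, at 73 bases 0.584 in sperm and 0.010 in tail, and at 113 bases 0.149 in sperm and 0.007 in tail. All 10 CpGs of the span were higher in sperm. Farther out, at 248 bases, the level was 0.000 in sperm over 58 calls and 0.442 in tail over 43 calls.

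The bin chr8:33493000-33493999 showed the opposite order. It holds a solo IAPLTR2a2, 22739 bases from the start of Tex15, a gene needed for meiosis in male germ cells. Its level was 0.221 in sperm (0.215 to 0.227, 19341 calls) and 0.796 in tail (0.789 to 0.802, 13545 calls). With means over positions it was 0.185 in sperm and 0.721 in tail. The 8 LTR CpGs ran between 0.099 and 0.307 in sperm and between 0.675 and 0.896 in tail, without overlap between the libraries. In tail the lowest LTR values were 0.743, 0.730 and 0.675 at the first 3 CpGs of the span, the last 2 of which are the CpGs of sites D and B. In the flank, 168 bases out, the level was 0.102 in sperm and 0.596 in tail.

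The bin chr19:5406000-5406999 holds a solo IAPLTR2, touches an exon of 4930481A15Rik and lies 3474 bases from the start of Tsga10ip. Its level was 0.661 in sperm (0.651 to 0.670, 9398 calls) and 0.273 in tail (0.262 to 0.283, 6872 calls). With levels as means over positions it was 0.601 in sperm and 0.438 in tail. Of its 8 positions 6 were partly methylated in both libraries, the largest share among members with 8 or more positions. The 4 CpGs with over 1000 calls had 0.667, 0.655, 0.612 and 0.633 in sperm, against 0.186, 0.343, 0.329 and 0.255 in tail. At the last 2 of these, 1220 of 1237 and 1363 of 1397 copies have CG, while at the first 443 of 804 have CG and 276 have CA. The flank 105 bases outside the LTR had 0.646 in sperm and 0.315 in tail. The sense strand of the LTR was higher, with 0.914 in sperm over 162 calls at position 5406421, where tail had 20 calls.

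**Figure D5:**
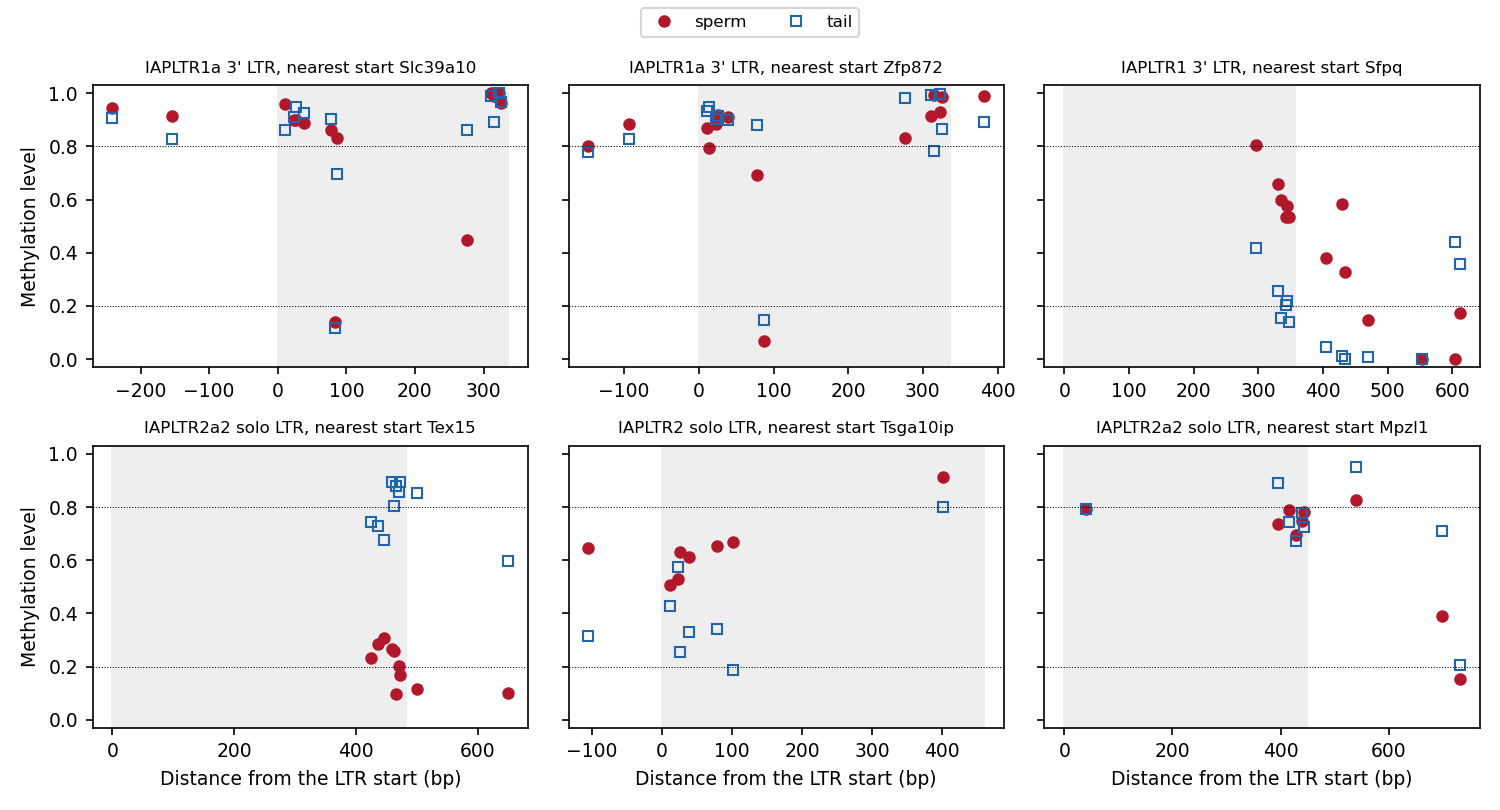
Methylation level against distance from the LTR start for 6 named members, with sperm as filled red circles and tail as open blue squares, the LTR shaded and dotted lines at 0.2 and 0.8; positions have 20 or more calls in both libraries. Panels are named by the nearest protein-coding start, which for Slc39a10 is 1461148 bases away. The bins named by Slc39a10 and Zfp872 have a single position below 0.2 in both libraries, at 84 and 87 bases. Those named by Sfpq, Tex15 and Tsga10ip keep sperm and tail apart over most of their positions.

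Members with mostly intermediate positions at the 3′ end of the LTR were also found. The bin chr1:165580000-165580999, a solo IAPLTR2a2 located 53539 bases from the start of Mpzl1, had 0.752 in sperm (0.744 to 0.759) and 0.767 in tail (0.757 to 0.777). Its 5 CpGs at the 3′ end of the LTR ran from 0.695 to 0.790 in sperm and from 0.674 to 0.891 in tail. The bin chr8:29786000-29786999, a solo IAPLTR2a2 566364 bases from the start of the netrin receptor gene Unc5d, had 0.638 in sperm and 0.787 in tail. Its 7 CpGs at the 3′ end lay between 0.516 and 0.677 in sperm. In tail they spread from 0.608 to 0.994. The bin chr14:114190000-114190999 holds an IAPLTR2a2 LTR that was counted as solo because no internal sequence was found within 100 bases of its ends. Internal sequence was covered from 200 bases beyond its 3′ end, so it may not be a true solo LTR. The bin had 0.653 in sperm and 0.724 in tail, with 8 of 15 positions partly methylated in both. Only some of these 8 lay in the LTR, and the others lay in IAP internal sequence or in the flank. Most of its LTR CpGs were above 0.8 in tail.

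Other members with high shares of such positions were more mixed. The bin chr14:84233000-84233999, an IAPLTR2 5′ LTR, had 0.598 in sperm and 0.743 in tail, with 6 of 11 positions partly methylated in both and 4 above 0.8 in both. There the CpG at 84233650, the place of site B, had 0.231 in sperm and 0.671 in tail, and the CpG at 84233637, the place of site E, had 0.924 in sperm and 0.935 in tail. The bin chr14:39496000-39496999, an IAPLTR2a 3′ LTR 22912 bases from the start of the growth factor gene Nrg3, had 0.720 in sperm and 0.611 in tail. In sperm most of its calls came from 2 CpGs of the LTR, which had 0.699 and 0.737 in sperm, against 0.739 and 0.822 in tail. In tail most calls came from internal sequence, where position 39496494 had 0.270 in sperm (63 calls) and 0.156 in tail (1676 calls). With means over positions the order turned, with 0.626 in sperm and 0.663 in tail.

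Several of the bins with the largest differences between libraries rested on few positions. Sperm was far below tail at chr2:64824000-64824999 (0.209 in sperm, 0.190 to 0.229, and 0.783 in tail, 0.762 to 0.804), which is farther than 1 kb from any LTR found and has 2 well covered positions. At chr4:29026000-29026999, beside an LTR and 212869 bases from the start of Epha7, a receptor kinase gene, 1 position gave 98.5% of the unmethylated calls in sperm, and the bin had 0.424 in sperm and 0.751 in tail. At chr18:40968000-40968999, a solo IAPLTR2a2, the level was 0.229 in sperm (0.214 to 0.245) and 0.784 in tail (0.763 to 0.805), and all 4 covered positions were lower in sperm, both in the LTR and in the flank. With means over positions its tail level was 0.861 and that of the bin near Epha7 0.886. With capped calls these were 0.834 and 0.855, so neither bin was a member either way. At chr7:33554000-33554999, an IAPLTR2b 5′ LTR, the level was 0.520 in sperm and 0.786 in tail. Levels as means over positions of 5 or more calls gave 0.803 in sperm and 0.789 in tail, but over unlike sets of positions. The sperm mean took in fully methylated internal and flank positions that had under 5 calls in tail. It therefore cannot tell whether the difference held. At the 3 positions with 20 or more calls in both libraries, sperm had 0.338, 0.531 and 0.750, against 0.851, 0.750 and 0.765 in tail. Calls capped at 100 per position gave 0.665 in sperm and 0.796 in tail.

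Sperm was far above tail at other bins. The bin chr11:113172000-113172999, in an exon of 2610035D17Rik and 389776 bases from the start of Sox9, a transcription factor gene, had 0.608 in sperm (0.590 to 0.625) and 0.201 in tail (0.189 to 0.213). With means over positions it was no member, at 0.532 for sperm and 0.146 for tail. Its 3 flank positions climbed toward the LTR in both libraries, with 0.359, 0.527 and 0.709 in sperm at 121, 110 and 98 bases from the LTR, against 0.099, 0.165 and 0.319 in tail. The bin chr5:104034000-104034999, beside an LTR and 11307 bases from the start of Nudt9, rested on 1 position with 0.757 in sperm and 0.508 in tail over 1980 and 1014 calls.

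A member with no IAP LTR within 1 kb of its covered positions was also low to intermediate along its length. The bin chr11:99634000-99634999 lies in the exon of Krtap4-2, a keratin-associated protein gene of hair, whose start is 85 bases away. Its level was 0.418 in sperm (0.407 to 0.430, 7165 calls) and 0.212 in tail (0.199 to 0.227, 3418 calls). The covered span is shown with its CpGs in capitals, since no LTR lies in it.
chr11:99634542-99634822, plus strand: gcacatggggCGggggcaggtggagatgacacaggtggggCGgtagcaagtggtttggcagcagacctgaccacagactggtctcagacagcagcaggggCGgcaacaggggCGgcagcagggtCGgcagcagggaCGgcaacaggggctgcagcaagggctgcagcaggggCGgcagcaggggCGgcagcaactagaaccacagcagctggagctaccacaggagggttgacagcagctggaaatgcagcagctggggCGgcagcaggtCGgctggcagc

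Its 10 CpGs ran between 0.204 and 0.618 in sperm and between 0.094 and 0.267 in tail. Sperm was higher at 9 of them, and the last, 99634812, had 0.204 in sperm and 0.209 in tail.

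Other members also lay at protein-coding exons or starts. At Olfr1152, an olfactory receptor gene, the bin chr2:87872000-87872999 held an IAPLTR2a2 5′ LTR with 0.655 in sperm (0.641 to 0.669) and 0.759 in tail (0.746 to 0.772). Beside Gm7735 the bin chr16:89168000-89168999 had 0.715 in sperm and 0.777 in tail, with 8 of 11 positions above 0.8 in both and 1 at 0.014 in sperm and 0.141 in tail. That position is in internal sequence, where 898 copies have CG and 1344 have CA. At Slco2b1, which encodes an organic anion transporter, the bin chr7:99690000-99690999 had 0.787 in sperm (0.763 to 0.808) and 0.517 in tail (0.469 to 0.564, 449 calls).

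The rest of this group also held under 1000 calls in at least 1 library. At Gdpd4 the level was 0.638 in sperm and 0.737 in tail, from 1 position. Near the start of Ogfod2 it was 0.502 in sperm and 0.740 in tail, and near the start of Exoc3l2 0.762 in sperm and 0.794 in tail. At Gckr, the regulator of glucokinase, it was 0.769 in sperm (0.728 to 0.806) and 0.664 in tail (0.618 to 0.708). At Tmed7, a gene of vesicle transport, it was 0.702 in sperm (0.654 to 0.746) and 0.572 in tail (0.531 to 0.612), again from 1 position.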

How the data were processed

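DNA methylation was measured in 1 sperm and 1 tail library of the same mouse by bisulfite sequencing from primers in IAP LTRs. The authors mapped the reads to mm10 with Bismark (version not given in the sources used here) and dropped pairs with several matches. The deposited percent methylation per CpG position and strand was not used. All values come from the deposited counts of methylated and unmethylated calls, 95744413 in sperm and 55366653 in tail.

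Bins, levels and limits are described with the results. The code of the rule was checked on simulated bins whose levels lay well away from the limits. That check says nothing about bins near a limit. LTR and internal copies were found with blastn 2.17.0 (word size 16) in 158.9 Mb of GRCm38 around the bins, using 324 LTR and 79 internal sequences at coordinates of the supplementary table as queries, with LTRs of at least 250 bp and 80% of the query length. The table's own values were not used. 8602 LTRs were found. An LTR was counted as solo when no internal sequence began or ended within 100 bases of its ends, so some solo LTRs may have internal sequence farther out. All 1484892 covered positions are CpG cytosines of GRCm38. Genes are GENCODE M21. Python 3.11.15, numpy 2.4.6, pandas 2.3.3 and scipy 1.17.1 were used.

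The members and lists were chosen with earlier results of these data known. Named bins are the 6 most deeply read members, the 5 largest and 5 smallest differences with 1000 calls in both libraries, the 6 highest and 4 lowest shares of partly methylated positions (8 or more positions, ties broken by depth, 9 members being tied at the lowest share), the 10 most deeply read at protein-coding exons or starts, members near listed genes, and those at the limits. The comparison of dinucleotides among copies, the recurring sites and the omission of positions were added after the data had been seen. Alternatives were other call minimums, limits, bins and ways to take a level.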

Additional observations from a re-analysis of the deposited data

How the results depend on the processing

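Each tissue has 1 library, so no replicate could be left out. No paired analysis was possible because each tissue has 1 library. The number of bins partly methylated in both libraries (477) was 1075 with a minimum of 20 calls, 220 with 500, 152 with 1000, 723 with levels as means over positions of 5 or more calls, 83 with limits of 0.3 and 0.7, and 316 without places where TG stands in 10% or more of copies. Of the 723, 336 were among the 477. It stayed within 1.5 times of 477 with capped calls (545, 406 of them among the 477), shifted or 500-base bins, positions covered in both libraries, chromosomes X and Y added, and the position with most calls left out (371). The median difference of -0.024 lay between -0.034 and -0.019 in all alternatives and was -0.034 with limits of 0.3 and 0.7.

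The share of members with an LTR (60.8%) depended on depth, with 41.7% at a minimum of 20 calls, 75.9% at 500 and 87.5% at 1000. It was 69.3% with means over positions, 66.1% with calls capped at 100 per position, 45.8% with limits of 0.3 and 0.7, 52.1% in 500-base bins, 73.0% without the position with most calls and 44.6% without places with TG. Bins read mostly in an LTR also grew more common with depth among all bins tested. They were 8280 of 10802 at a minimum of 100 calls and 5857 of 6330 at 1000. By the same measure, members read mostly in an LTR were 256 of 477 at a minimum of 100 calls and 124 of 152 at 1000. A rise with depth in that measure is therefore not particular to members. The median share of positions partly methylated (50% in sperm, 42.9% in tail) was 44.4% in sperm and 33.3% in tail with means over positions, and 60.0% in both with limits of 0.3 and 0.7. Of the 28 named bins, 14 stayed partly methylated in both with means over positions and 17 with capped calls. The causes were not tested. Depth limits the bins with few calls, and intervals cover counting error only.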
